A study of Rattus norvegicus with 20 samples.

Results

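The rat miRNAs rno-miR-221-3p, rno-miR-222-3p and rno-miR-21-5p are known, mainly from mouse, as miRNAs of undifferentiated spermatogonia, the dividing germ cells that precede meiosis. All 3 were chosen by name for that role, out of 677 miRNAs on the array, and were read from the rows that carry their names. The species prefix is dropped below. Their signal was followed from pachytene spermatocytes, which are in the long prophase of meiosis, to round spermatids, the haploid cells that come after meiosis. In saline rats miR-221-3p was lower in round spermatids by 1.64 ± 0.22 (SE) on the log2 scale, with 2 of the 5 spermatid arrays held at the floor of the measurement. The spermatid array of saline rat 16 lay above that floor but below its own lowest signal well above background. miR-222-3p was detected on 1 of those 5 arrays, so its level can only be given as at least 2.36-fold higher in pachytene spermatocytes. miR-21-5p was lower in round spermatids by only 0.20 ± 0.06. None of the 3 passed the test for a difference between cyclophosphamide and saline in either cell type.

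There were 20 one-colour arrays in 4 groups of 5, all from male Sprague-Dawley rats whose ages were not used here. The drug groups were gavaged with cyclophosphamide, an alkylating anticancer and immunosuppressive drug, at 6 mg/kg on 6 days a week for 4 weeks, and the control groups with saline on the same days. From each treatment, pachytene spermatocytes and round spermatids were parted by sedimentation at unit gravity, which sorts cells by size and gives enriched fractions, not pure cells. Spermatogonia were not analysed here, so the spermatogonial name of the 3 miRNAs could not be checked. The miRNAs miR-34b-5p, miR-34c-5p and miR-449a-5p, typical of male germ cells from meiosis on, were detected on all 5 arrays of every group. Each array carries a rat number, and equal numbers in both cell types of a treatment may or may not be the same rat. In the cyclophosphamide pachytene group 2 arrays carry the number 16, set apart by a year alone, and the labels do not say whether they come from 2 rats. Both count towards n = 5, and below the year tells the earlier from the later. Leaving out either one gave cell type differences under cyclophosphamide of -1.65 and -1.64 for miR-221-3p and of -1.54 and -1.55 for miR-222-3p, and changed no call of the 3 miRNAs there. How far the p-values reflect spread between animals depends on whether the numbers mark separate rats.

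A miRNA guides an Argonaute protein to messages that pair with its seed, here bases 2 to 8 from the 5′ end, and lowers their stability and translation. In mouse spermatogonia miR-221 and miR-222 are known to hold down the receptor tyrosine kinase Kit, whose appearance marks the step to differentiating spermatogonia. They are also known from blood vessels and from many tumours, where the cell cycle inhibitor Cdkn1b is among their targets. In mouse cultures enriched for spermatogonial stem cells miR-21 is known to support survival, and in many other tissues it is an abundant miRNA that responds to injury. Cyclophosphamide damages DNA and is known to harm male germ cells.

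The mature sequences are shown because the first 2 miRNAs share a seed and the third does not. Letters run 5′ to 3′, capitals mark the seed, and the sequences are RefSeq's on build GRCr8, where all 3 members were found by name.
miR-221-3p: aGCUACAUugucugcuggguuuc
miR-222-3p: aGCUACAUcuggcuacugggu
miR-21-5p: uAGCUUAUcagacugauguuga
miR-221-3p and miR-222-3p begin with the same 8 bases, all 7 seed bases included, and over the 21 positions of the shorter one 11 are identical without gaps. The seed of miR-21-5p matches 2 of those 7 positions. Of the 677 array miRNAs 607 had a mature sequence in the table, and none outside the 3 carried either seed. miR-221-3p lies at chrX:6023246-6023268 and miR-222-3p at chrX:6022682-6022702, both on the plus strand, with 458 bases between their hairpins. Both hairpins overlap the unnamed loci LOC120099382 and LOC120099384. miR-21-5p lies at chr10:71902653-71902674 on the minus strand, and its hairpin overlaps no other annotated gene, with Tubd1 and Vmp1 as its neighbours. The array design names an older rat build, so these positions come from RefSeq and not from the deposited files.

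Each of the 3 miRNAs has 2 probes of 10 spots each. The values below are the processed signal of the brighter probe, scaled so that arrays can be compared, with no unit and no meaning as copies per cell. Signals of different miRNAs cannot be ranked, because probes differ in how well they bind. Log2 values were held at a floor of 3.61, a scaled signal of 12.17, below which a signal has no order. That floor is the median over arrays of the lowest scaled signal well above background, the array's own limit. This limit ran from 4.95 to 23.7, so a value above the floor can still lie below the limit of its own array. The arrays detected between 181 and 281 miRNAs each, and no spot was saturated. With 5 arrays a group, their number limits the precision. Before scaling, the 75th percentile used for it ran from 253 to 571 on pachytene arrays (median 306) and from 141 to 339 on spermatid arrays (median 258), so that the cell types overlapped. The arrays lay on 3 slides. Slide 1 held 4 pachytene and 4 spermatid arrays, slide 2 held 6 and 2, and slide 3 held 4 spermatid arrays only.

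In saline pachytene spermatocytes miR-221-3p had scaled signals of 42.3, 30.2, 54.6, 56.8 and 44.0 in rats 13, 16, 25, 26 and 28. Under cyclophosphamide they were 31.4 in rat 7, 31.8 in rat 15, 54.1 and 55.6 on the earlier and the later array numbered 16, and 69.1 in rat 29. The lowest of these 10 values belong to slide 1, and both treatments cover much the same range. In saline round spermatids the signals were 9.91, 15.2, 15.3, 17.4 and 11.1 in rats 15, 16, 17, 25 and 28. Under cyclophosphamide they were 10.4, 10.2, 12.9, 14.9 and 19.3 in rats 14, 15, 16, 25 and 26. No spermatid array reached the lowest pachytene array, and in saline the lowest pachytene signal was 1.73 times the highest spermatid signal. miR-221-3p was detected on 9 of 10 spermatid arrays, and held at the floor on 4 of the 10. Other spermatid values lay above the floor but below the limit of their own array. These were saline rat 16 (15.2 against 20.9) and cyclophosphamide rats 16 (12.9 against 14.6) and 25 (14.9 against 15.6). All 10 of its spots were well above background on 2 of these 10 arrays, against all 10 pachytene arrays.

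miR-222-3p, the seed partner of miR-221-3p, had scaled signals of 37.1, 26.7, 37.0, 38.3 and 28.6 in saline pachytene spermatocytes of rats 13, 16, 25, 26 and 28. Under cyclophosphamide they were 29.4 in rat 7, 27.9 in rat 15, 41.9 and 41.5 on the earlier and the later array numbered 16, and 49.96 in rat 29. The 2 groups overlap, and the highest array is again that of cyclophosphamide rat 29. In saline round spermatids the signals were 4.89, 12.6, 6.53, 9.17 and 4.91 in rats 15, 16, 17, 25 and 28, and under cyclophosphamide 8.55, 4.97, 9.12, 8.27 and 13.2 in rats 14, 15, 16, 25 and 26. Above the floor lay saline rat 16 and cyclophosphamide rat 26 alone, and only 2 of the 10 spermatid arrays detected the miRNA, those of saline rat 25 and cyclophosphamide rat 26. The values of saline rat 16 and cyclophosphamide rat 26 lay below the limits of their own arrays, 20.9 and 13.7. On 8 of the 10 spermatid arrays no spot was well above background. In saline the lowest pachytene signal was 2.12 times the highest spermatid signal, so the cell types did not overlap. miR-222-3p entered the test only through the pachytene groups, where it was high, while miR-221-3p was also detected on all 5 saline spermatid arrays.

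**Figure D1:**
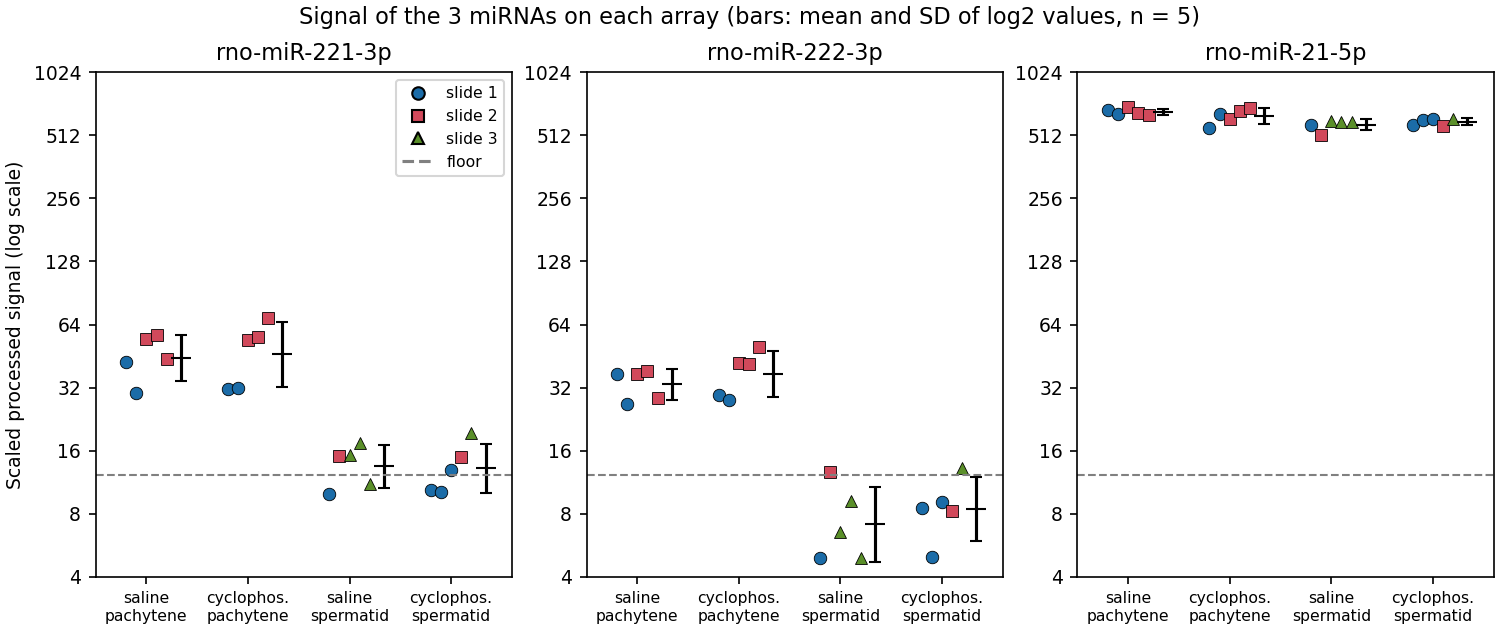
Scaled processed signal (log axis, no unit) of the brighter probe of each miRNA on the 20 arrays, by group, with the slide as marker shape and colour; the bars beside the points are the mean and SD of the log2 signal before the floor, n = 5, and the dashed line is the floor of 12.17. miR-221-3p and miR-222-3p lie between 26.7 and 69.1 on all pachytene arrays and at or below 19.3 on all spermatid arrays, while miR-21-5p stays between 517 and 696 throughout.

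miR-21-5p was detected with all 10 spots above background on each of the 20 arrays. Its scaled signal was 677, 644, 696, 652 and 638 in saline pachytene spermatocytes of rats 13, 16, 25, 26 and 28. It was 555, 646, 614, 667 and 693 under cyclophosphamide, for rat 7, rat 15, the earlier and the later array numbered 16 and rat 29. Rat 7 was the lowest of the 10 pachytene arrays. In round spermatids the signal was 576, 517, 601, 590 and 594 in saline rats 15, 16, 17, 25 and 28, and 576, 607, 614, 566 and 610 in cyclophosphamide rats 14, 15, 16, 25 and 26. In saline the lowest pachytene array was 1.06 times the highest spermatid array, so those groups did not overlap, whereas under cyclophosphamide rat 7 and the spermatid arrays did. The coefficient of variation between arrays was 3.73% in saline pachytene spermatocytes for miR-21-5p, 23.5% for miR-221-3p and 16.2% for miR-222-3p.

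The opposite arms of the hairpins, which are usually degraded after the duplex opens, were at the floor on all 20 arrays. miR-221-5p and miR-222-5p were detected on none of them. miR-21-3p was detected on 1 array, that of saline pachytene rat 26. On no array of that group was more than 1 spot of its brighter probe well above background. The second, dimmer probe of miR-21-5p ran at a similar share of the brighter one in every group, with group medians between 0.579 and 0.645. In saline and cyclophosphamide pachytene spermatocytes the median share was 0.594 and 0.601 for miR-221-3p, and 0.676 and 0.711 for miR-222-3p. In round spermatids the dimmer probes of both were at the floor on all 10 arrays, so no share was measurable there.

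The cell type comparison in saline rats asked how the 3 miRNAs differ between meiosis and the haploid stage without the drug. The mean log2 signal of miR-221-3p was 5.48 ± 0.36 (SD, n = 5) in pachytene spermatocytes and 3.84 ± 0.23 in round spermatids. That of miR-222-3p was 5.05 ± 0.24 and 3.62 ± 0.02, the small SD coming from arrays held at the floor. By limma over all 217 tested miRNAs the adjusted p was 5.03e-06 for miR-221-3p and 1.75e-07 for miR-222-3p, with log2 differences of -1.64 (95% interval -2.10 to -1.17) and -1.44. The value for miR-222-3p and its p are shaped by the filter and the floor, since the miRNA entered the test through the pachytene groups and 4 of its 5 spermatid values are the floor itself. After normexp background correction neither passed, with adjusted p-values of 0.835 and 0.941 by limma. The offset of 50 added there exceeds the processed signal of both on all 10 spermatid arrays, and the median of all 217 differences was then 0.44. miR-21-5p went from 9.37 ± 0.05 to 9.17 ± 0.09, a difference of -0.20 (interval -0.32 to -0.08) at an adjusted p of 0.00776. Of the 217 miRNAs 47.5% passed this test, 21.7% lower and 25.8% higher in round spermatids, so that passing it does not set the 3 apart from the array. Counted from the most negative difference, miR-221-3p ranked 7th and miR-21-5p 69th of 217 with the floor in place, where the median was 0.02 and the middle part of the distribution, from quartile to quartile, ran from -0.32 to 0.34.

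Where signals lie at the floor the fitted difference depends on it. Setting each spermatid array at the higher of its own signal and its lowest signal well above background gives a saline pachytene level of miR-221-3p at least 2.83-fold higher, and of miR-222-3p at least 2.36-fold higher. With the floor at 6.09, miR-222-3p differed by -2.10 in saline and -2.08 under cyclophosphamide, and miR-221-3p by -1.72 and -1.81. Processed signals before scaling did not overlap either, with miR-221-3p between 27.5 and 117 on pachytene and between 6.61 and 18.1 on spermatid arrays. Those of miR-222-3p ran from 24.3 to 78.8 and from 4.87 to 10.1. In such bulk fractions fewer cells that hold a miRNA and less of it per cell cannot be told apart.

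Under cyclophosphamide miR-221-3p went from 5.53 ± 0.51 (SD, n = 5) in pachytene spermatocytes to 3.81 ± 0.28 in round spermatids, and miR-222-3p from 5.22 ± 0.36 to 3.63 ± 0.05. The log2 differences were -1.71 ± 0.22 (SE) and -1.59 ± 0.14, with limma adjusted p-values of 2.82e-06 and 4.32e-08, the latter again set in part by 4 of 5 spermatid arrays at the floor. After normexp, with the same offset, neither passed (limma adjusted p 0.137 and 0.232). With the same bound as above the pachytene level was at least 2.88-fold higher for miR-221-3p and at least 2.49-fold higher for miR-222-3p. miR-21-5p had 9.31 ± 0.12 and 9.21 ± 0.05, a difference of -0.09 ± 0.06 that did not pass (adjusted p 0.197 by limma, interval from -0.21 to 0.03). Without cyclophosphamide pachytene rat 7 it was -0.14 and passed, with an adjusted p of 0.0373. Here 52.1% of the 217 miRNAs passed, 22.6% lower and 29.5% higher in round spermatids. These 2 treatments use separate arrays, and for none of the 3 did the difference between them pass the test described further on.

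**Figure D2:**
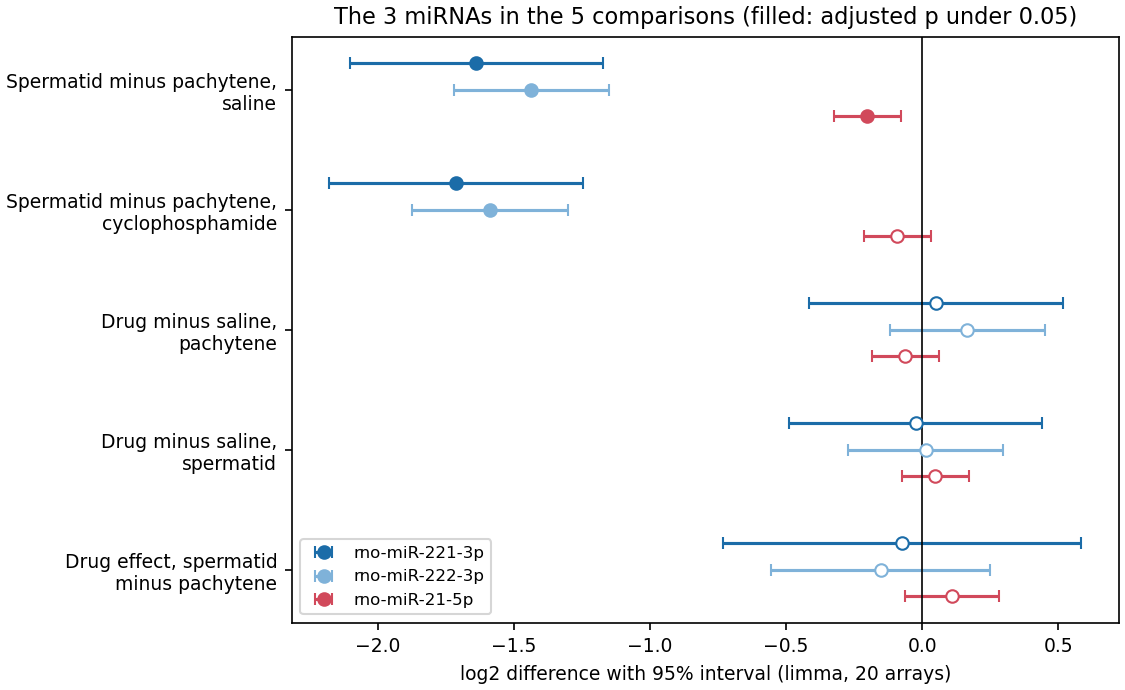
Log2 difference (x axis) of the 3 miRNAs in the 5 comparisons (y axis), with 95% intervals from the limma model of 20 arrays; filled points have an adjusted p under 0.05 over 217 miRNAs. miR-221-3p and miR-222-3p lie between -1.71 and -1.44 in both cell type comparisons, where the points and intervals of miR-222-3p rest on spermatid values at the floor, and every interval for the drug includes 0.

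Differences between pairs of members were taken within each array, so that scaling between arrays cancels out wherever both members lie above the floor. It does not where one is held there, as miR-222-3p was on 8 and miR-221-3p on 4 of the 10 spermatid arrays. From pachytene spermatocytes to round spermatids miR-221-3p fell by 1.44 ± 0.19 (SE) more than miR-21-5p in saline and by 1.62 ± 0.23 more under cyclophosphamide. Each of these tests gave the smallest p that the splits of 10 arrays into 5 and 5 allow, 0.00794 (exact two-sided permutation test, n = 5 per cell type), or 0.0119 after adjustment over 6 pairs and treatments. For miR-222-3p against miR-21-5p the fitted differences, -1.23 in saline and -1.496 under cyclophosphamide, are measured from the floor on most spermatid arrays and are given without a test. Between miR-221-3p and miR-222-3p the log2 difference in change was -0.20 ± 0.14 in saline and -0.12 ± 0.13 under cyclophosphamide, with adjusted exact permutation p-values of 0.238 and 0.333 at n = 5. The sign of that last comparison depends on the floor, being 0.37 and 0.28 with the floor at 6.09 (adjusted exact permutation p 0.0794 for both, n = 5). With the total gene signal it was 1.14 and 0.94 and passed (0.00952 and 0.0476 by the same test, n = 5). Whether the changes of this pair differ was therefore not measurable at this signal.

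The 4 groups were also put in order by their mean. For miR-221-3p the order was cyclophosphamide pachytene, saline pachytene, saline spermatid and cyclophosphamide spermatid, and its step from the lower pachytene to the higher spermatid group passed (adjusted exact permutation p 0.0357 over 9 steps, n = 5), while its steps within a cell type did not, each with an adjusted p of 1. For miR-222-3p both pachytene groups lay above both spermatid groups, which have no order between them, since 4 of 5 arrays in each are at the floor. Its pachytene groups did not differ beyond their spread (adjusted exact permutation p 0.583, n = 5). For miR-21-5p the order was saline pachytene, cyclophosphamide pachytene, cyclophosphamide spermatid and saline spermatid. None of its 3 steps between neighbours passed, with adjusted exact permutation p-values of 0.524 to 0.583, so neighbouring groups were not separated beyond their spread.

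The comparisons of cyclophosphamide with saline asked whether the drug alters these miRNAs in each cell type. In pachytene spermatocytes the log2 difference was 0.05 ± 0.22 (SE) for miR-221-3p, 0.17 ± 0.14 for miR-222-3p and -0.06 ± 0.06 for miR-21-5p, each with an adjusted p of 1 by limma. The 95% intervals ran from -0.42 to 0.52, from -0.12 to 0.45 and from -0.19 to 0.06. For miR-21-5p that is a ratio between 0.879 and 1.04, and for miR-221-3p between 0.750 and 1.43, so the data bound the former far more closely than the latter. Of all 217 miRNAs 0% passed, and 1 had an unadjusted p under 0.05.

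In round spermatids the drug difference was -0.02 ± 0.22 (SE) for miR-221-3p, 0.01 ± 0.14 for miR-222-3p and 0.05 ± 0.06 for miR-21-5p, with adjusted p-values of 1, 1 and 0.868 by limma. The intervals were -0.49 to 0.44, -0.27 to 0.30 and -0.07 to 0.17. For miR-222-3p, at the floor on 8 of these arrays, neither this difference nor the one between drug effects given next was measurable at this signal. Again 0% of 217 passed, with 4 at an unadjusted p under 0.05. The drug effect in round spermatids minus that in pachytene spermatocytes was -0.07 ± 0.31 for miR-221-3p, -0.15 ± 0.19 for miR-222-3p and 0.11 ± 0.08 for miR-21-5p, each with an adjusted p of 1 by limma. This term is also the difference between the cell type differences of the 2 treatments. For it 0% of 217 passed, with 1 at an unadjusted p under 0.05. Leaving out single arrays turned the sign of the drug difference of miR-221-3p in both cell types, which ranged from -0.10 to 0.19 in pachytene spermatocytes and from -0.14 to 0.05 in round spermatids.

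Part of the spread of miR-221-3p within a cell type went with the slide. Among pachytene arrays its scaled signal was 30.2 to 42.3 on the 4 of slide 1 and 44.0 to 69.1 on the 6 of slide 2, with no overlap. The difference, with treatment in the model, was 0.72 ± 0.14 (SE) on the log2 scale, or 1.64-fold, with an adjusted p of 0.00882 by limma. For miR-222-3p it was 0.38 ± 0.15 (adjusted p 0.113) and for miR-21-5p 0.07 ± 0.06 (adjusted p 0.458). Of the 217 miRNAs 24.0% differed between these slides, 22 higher and 30 lower on slide 2. Among spermatid arrays 8.76% differed between slide 3 and the others, and none of the 3 did, with 0.30 ± 0.15 for miR-221-3p. Both treatments and both cell types stand on slides 1 and 2.

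Within slide 1 the saline difference between the cell types was -1.55 ± 0.20 (SE) for miR-221-3p and -1.37 ± 0.19 for miR-222-3p, and within slide 2 it was -1.76 ± 0.21 and -1.45 ± 0.21. Under cyclophosphamide the values were -1.35 ± 0.15 and -1.23 ± 0.14 on slide 1 and -1.99 ± 0.21 and -1.86 ± 0.21 on slide 2. Of these, only cyclophosphamide on slide 1 has more than 1 array in each cell type, 2 pachytene and 3 spermatid arrays. There miR-221-3p passed with a limma adjusted p of 0.00216, with 2 of its 3 spermatid values at the floor and that of rat 16 below its own array's limit. All 3 spermatid values of miR-222-3p there are at the floor, so its difference is given without a call. The values of saline and of slide 2 rest on 1 spermatid array each, which is assumed to vary like the other groups, and are given without a call. miR-21-5p was at -0.20 ± 0.12 in saline on slide 1 and at -0.36 ± 0.09 on slide 2, each with 1 spermatid array. The array on slide 2 is that of saline rat 16, the lowest of its group for miR-21-5p. Under cyclophosphamide miR-21-5p was at 0.00 ± 0.09 and -0.22 ± 0.09, the latter again with 1 spermatid array. When the slide entered the model, the saline differences were -1.73 ± 0.16, -1.41 ± 0.14 and -0.26 ± 0.07 for miR-221-3p, miR-222-3p and miR-21-5p. Of these miR-221-3p and miR-21-5p passed. That of miR-222-3p, with 4 of 5 saline spermatid arrays at the floor, is given without a call. The drug difference of miR-221-3p in pachytene spermatocytes was -0.18 ± 0.16 on slide 1 and 0.20 ± 0.15 on slide 2, and that of miR-222-3p -0.14 ± 0.16 and 0.37 ± 0.15. None of these 4 passed, with adjusted p-values of 0.435 to 1 by limma.

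Of the other miRNAs known from spermatogonia, mainly in mouse, miR-202-3p and miR-20a-5p were lower in round spermatids of saline rats. Of 11 on the list, 5 were detected on no array (miR-135a-5p, miR-224-5p, miR-182, miR-183-5p and miR-544-3p), 2 did not reach the test and 4 were tested. In saline 1 of the 4 was higher and 2 were lower in round spermatids, with a median difference of -0.26 against 0.02 over all 217. Of all 217, 25.8% were higher and 21.7% lower. miR-202-3p, a gonadal miRNA, was lower, with 6.49 ± 0.14 (SD, n = 5) in pachytene spermatocytes and 4.73 ± 0.49 in round spermatids (limma adjusted p 2.68e-07). miR-20a-5p of the miR-17 family was lower by 0.41 ± 0.12 (SE) with an adjusted p of 0.00977. miR-322-5p, an X-linked miRNA, had -0.11 ± 0.16 (adjusted p 0.590). miR-146a-5p, also known from immune cells, was higher, at the floor on all pachytene arrays and at 5.61 ± 0.52 in round spermatids (limma adjusted p 1.75e-07). It entered the test only through the spermatid groups, where it was high, having been detected on 3 of 5 saline and 2 of 5 cyclophosphamide pachytene arrays, and a call reached in that way supports no direction. Under cyclophosphamide miR-146a-5p was higher and miR-202-3p lower, while miR-20a-5p at -0.22 ± 0.12 and miR-322-5p at -0.35 ± 0.16 did not pass.

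Among miRNAs of later germ cells miR-34b-5p was higher in round spermatids under both treatments. Of 6 listed, 5 were tested, and in saline 1 was higher and none lower, with a median of 0.17, beside 25.8% higher and 21.7% lower over all 217. miR-34b-5p was higher by 0.63 ± 0.19 (SE), with a limma adjusted p of 0.0114. miR-34c-5p had 0.47 ± 0.20, miR-449a-5p -0.26 ± 0.19 and miR-34c-3p -0.65 ± 0.34, none of which passed. Under cyclophosphamide 2 of the 5 were higher and none lower, beside 29.5% higher and 22.6% lower over all 217. These were miR-34b-5p by 0.85 ± 0.19 and miR-34c-5p by 0.73 ± 0.20.

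**Figure D3:**
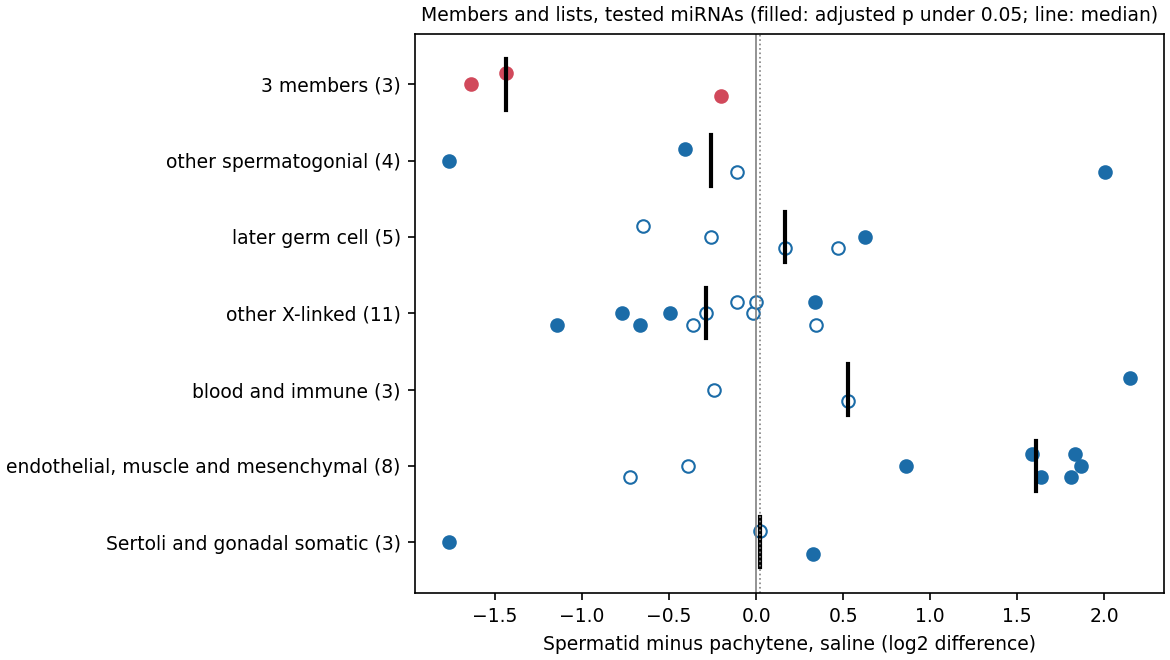
Log2 difference between round spermatids and pachytene spermatocytes in saline rats (x axis) for the 3 members and for the tested miRNAs of each list (y axis, number tested in brackets); filled points have an adjusted p under 0.05, short bars are medians and the dotted line is the median of all 217, 0.02. miR-221-3p and miR-222-3p lie left of all but 1 point of the other lists, miR-202-3p, which stands in 2 of them.

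miR-221-3p and miR-222-3p are X-linked, and the X chromosome is largely silenced during the pachytene stage, which many X-linked miRNAs are known to escape. Of 24 other X-linked miRNAs listed from outside the large testis cluster of the X, 23 were on the array and 11 tested. In saline 4 were lower and 1 higher in round spermatids, with a median of -0.29, beside 21.7% lower and 25.8% higher over all 217. miR-652-3p was lower by 1.15 ± 0.12 (SE) and miR-500-3p by 0.77 ± 0.10, with limma adjusted p-values of 2.68e-07 and 4.00e-06. miR-363-3p was higher by 0.34 ± 0.09, but it was at the floor on all pachytene arrays and at 3.94 ± 0.19 (SD, n = 5) in saline round spermatids. In each treatment it was detected on 5 of 5 pachytene and 4 of 5 spermatid arrays, so its call rests on the floor and supports no direction. miR-450a-5p had 0.34 ± 0.15 (SE) without passing. Under cyclophosphamide 5 of the 11 were lower and 1 higher, with a median of -0.29, beside 22.6% lower and 29.5% higher over all 217. Of the 11, 3 entered the test only through the pachytene groups. Among them is miR-351-3p, which was detected on no spermatid array and is counted as lower under both treatments. Its call was set by the filter and supports no direction. Over all tested miRNAs that RefSeq places on the X, without miR-221-3p and miR-222-3p, 16 of 38 were lower and 5 higher in saline, with a median of -0.27. On the other chromosomes, where miR-21-5p lies, 26 of 152 were lower and 48 higher, with a median of 0.09. These counts describe the array and were not tested as lists. They do not set apart miRNAs that entered the test through 1 cell type alone.

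**Figure D4:**
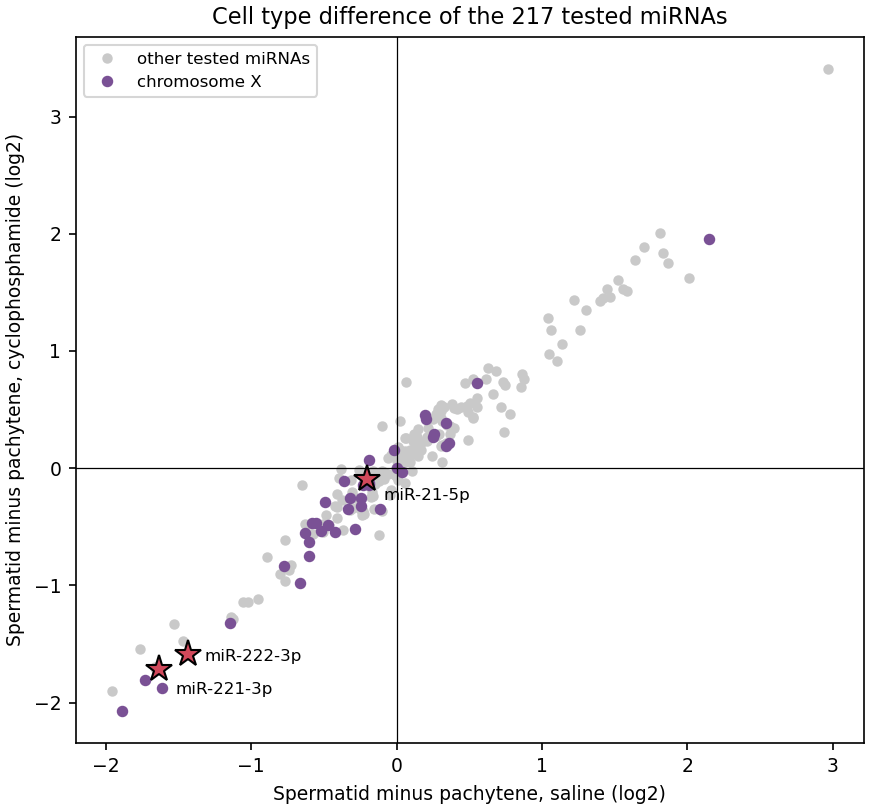
Log2 difference between round spermatids and pachytene spermatocytes in saline (x axis) and cyclophosphamide rats (y axis) for the 217 tested miRNAs, with those on chromosome X in purple and the 3 members as stars. miR-221-3p, at -1.64 and -1.71, and miR-222-3p, at -1.44 and -1.59, lie among the lowest points, and miR-21-5p, at -0.20 and -0.09, lies near the origin.

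Markers of other cells that sedimentation fractions can hold also differed between the cell types. In saline 6 of 8 tested endothelial, muscle and mesenchymal miRNAs, of 13 listed, were higher in round spermatids and 0 lower, with a median of 1.61. Under cyclophosphamide 6 were higher and 1 lower. Over all 217 miRNAs, 25.8% were higher and 21.7% lower in saline, and 29.5% and 22.6% under cyclophosphamide. The summed scaled signal of this list was 704 to 1519 in saline pachytene spermatocytes, 561 to 1035 under cyclophosphamide, and 2417 to 3701 and 1993 to 3860 in the corresponding spermatid groups. Of the list, miR-145-3p and miR-214-5p were detected on no array. The smooth muscle miRNA miR-145-5p was higher by 1.87 ± 0.34 (SE) and the mesenchymal miR-199a-3p by 1.83 ± 0.27, both passing by limma. The endothelial pair ran the other way, with -0.73 ± 0.32 for miR-126a-3p and -0.39 ± 0.20 for miR-126a-5p in saline, neither passing. miR-126a-5p entered the test only through the cyclophosphamide pachytene group and the muscle miRNA miR-133b-3p only through the spermatid groups. Under cyclophosphamide miR-126a-3p passed, with -0.83 ± 0.32 and an adjusted p of 0.0369 by limma. miR-221 and miR-222 are known from endothelium too, and the part of such cells in their difference was not tested.

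Of 8 blood and immune markers, 3 were tested, and in saline 1 was higher in round spermatids, the myeloid miR-223-3p, by 2.15 ± 0.16 (SE, limma adjusted p 6.11e-09). miR-142-3p had 0.53 ± 0.22 and miR-150-5p -0.24 ± 0.34, neither passing. Over all 217 miRNAs, 25.8% were higher and 21.7% lower in saline, and 29.5% and 22.6% under cyclophosphamide. Under cyclophosphamide 2 of the 3 blood and immune markers were higher and none lower. Their summed scaled signal was 83.2 to 115 in saline pachytene spermatocytes and 157 to 222 in saline round spermatids, and 67.3 to 108 and 140 to 209 under cyclophosphamide. The red cell miRNA miR-451-5p was detected on 1 array of 20, and both arms of miR-144 on none. Of 5 Sertoli and gonadal somatic markers, 3 were tested. miR-132-3p, which entered the test only through the spermatid groups, was at the floor on every pachytene array and at 3.93 ± 0.21 (SD, n = 5) in saline round spermatids. miR-212-3p had a difference of 0.02 ± 0.26 (SE) and miR-202-3p was lower, as given above, while miR-132-5p was detected on no array. Their summed signal was 386 to 483 and 249 to 589 in saline pachytene spermatocytes and round spermatids, and 358 to 464 and 279 to 570 under cyclophosphamide. The part of these cells in the differences of the 3 members was not tested. No miRNA of any of these lists passed the test for the drug in either cell type.

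The tested miRNAs whose pattern over the 20 arrays was most like that of each member were ranked by the root mean square difference of log2 signals after centring. For miR-221-3p these were miR-3585-5p (0.14), miR-547-3p (0.16) and miR-201-3p (0.18), against a median of 0.95 over the array, with miR-222-3p in 5th place (0.21). For miR-222-3p they were miR-138-5p (0.12), miR-201-3p (0.16) and miR-221-3p (0.21). In saline these neighbours had cell type differences of -1.62 for miR-3585-5p, -1.73 for miR-547-3p and -1.66 for both miR-201-3p and miR-138-5p. For miR-21-5p the nearest were let-7f-5p, miR-30c-1-3p and miR-210-3p, all at 0.11. let-7f-5p differed by 0.03, so both it and miR-21-5p changed little between the cell types. Their deviations from the group means also correlated, as described below (r = 0.79). miR-210-3p differed by exactly 0 in every comparison, as values held at the floor do, and miR-30c-1-3p by -0.003 in saline and 0 under cyclophosphamide. Their likeness to miR-21-5p is therefore not one of measured stability. Between the drug and saline spermatid groups miR-138-5p and miR-201-3p also differed by exactly 0, so the floor enters their likeness to miR-222-3p.

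Deviations from the group means, which leave the cell type and the drug out, were correlated over the same 20 arrays as a description. With miR-221-3p they were highest for the X-linked miR-201-5p (r = 0.93), miR-3585-5p (0.92) and miR-743a-3p (0.88), and for miR-222-3p it was 0.85. With miR-222-3p they were highest for miR-138-5p (0.93), miR-186-5p (0.90) and miR-221-3p (0.85). miR-21-5p gave 0.79 with let-7f-5p, 0.68 with miR-101b-3p and 0.67 with miR-463-3p, and 0.43 and 0.48 with miR-221-3p and miR-222-3p. The arrays share slides, scaling and the floor, all of which enter these values.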

How the data were processed

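Total RNA (100 ng) was labelled with Cy3, per the labels' protocols. Per the file headers, the deposited array files contain linear spot intensity made with Agilent Feature Extraction 11.5.1.1, with background subtracted and no scaling between arrays. The authors' deposited value table holds log2 values centred per miRNA, with column medians between -0.12 and 0.40; its normalization is not given in the sources used here, and it served as an alternative only. On each array the processed signal was divided by its 75th percentile, taken over 2176 spots that exceed background throughout, brought to a common level, floored at 12.17 and taken to log2. Control spots and outlier spots were left out, spots of a probe averaged, and the brightest probe stood for a miRNA. A miRNA was tested when every array of some group detected it, which held for 217. The test was limma 3.58.1 (R 4.3.3), 4 group means, 16 residual degrees of freedom, Benjamini-Hochberg adjustment over 217 and a threshold of 0.05; the code was tested on simulated data. The array files hold no mean signal, so normexp used the median signal with an offset of 50, not the mean signal as planned. Named miRNAs are the 3 members, their opposite arms, tested spermatogonial miRNAs, the 2 highest and 2 lowest saline cell type differences of each other list, and the 3 most alike by each measure. Members and lists were chosen with earlier results of these data known. Alternatives changed the scaling, background correction, probe summary, floor, filter, slide, array weights, replicate block and arrays used. Equal rat numbers were not taken as pairs, because the labels do not say that they mark the same rat in both cell types. Deviations of the 3 equal-numbered saline arrays correlated at r from -0.29 to 0.16. Those values cannot decide the question, since the 2 arrays of each such pair lay on different slides. Figures were drawn with Python 3.11.15.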

Additional observations from a re-analysis of the deposited data

Results flagged for a closer look

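In 3 of 12 sets of 5 arrays (4 groups, 3 miRNAs) 1 array lay far from the rest by Dixon's test, and chance gives about 1 in 20. For miR-222-3p the arrays of saline spermatid rat 16, at 3.66 on the log2 scale, and of cyclophosphamide spermatid rat 26, at 3.72, were the only ones of their groups above the floor, so the gap there is set by the floor. For miR-21-5p the array of saline spermatid rat 16 was the lowest of its group, at 9.01. That array also had the lowest 75th percentile before scaling of all 20, 141.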

How the results depend on the processing

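The widest moves of the cell type differences of miR-222-3p came from the authors' deposited table, given at the end, and calls of miR-221-3p and miR-222-3p between the cell types were lost after normexp. There the saline cell type differences were -0.076 for miR-221-3p, 0.026 for miR-222-3p and -0.20 for miR-21-5p (limma adjusted p 0.835, 0.941 and 0.167) and 39 miRNAs passed in place of 103. Normexp also moved the median saline difference of all miRNAs to 0.44, from 0.02 in the main setting, so all 3 lay below that median. Under cyclophosphamide that median was -0.06 after normexp and 0.06 in the main setting. With the drug miR-221-3p and miR-222-3p stood at -0.64 and -0.59 without passing, and 37 passed in place of 113. The spermatid drug difference of miR-222-3p was -0.19. The offset of 50 exceeds the processed signal of both on every spermatid array, and on 4 of 10 pachytene arrays for miR-221-3p and 7 of 10 for miR-222-3p. The dimmer probes of both were at the floor on all 10 spermatid arrays, so that their differences, which have no test, are the pachytene level over the floor, -1.10 and -0.90 in saline and -1.18 and -1.12 under cyclophosphamide for miR-221-3p and miR-222-3p, and -0.18 for miR-21-5p there.

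The cyclophosphamide cell type difference of miR-21-5p passed at -0.30 with the percentile over all spots, -0.20 with quantile normalization, -0.80 with labelling spike-ins and -0.14 with the mean over probes, and ranged from -0.14 to -0.059 when arrays were left out in turn. Spike-ins moved the median of all miRNAs to -1.02 in saline and -0.50 under cyclophosphamide, relative to which miR-221-3p stood at -1.48 and -1.69, miR-222-3p at -1.07 and -1.43 and miR-21-5p at -0.40 and -0.30. They called 161 miRNAs in saline. The split of higher against lower calls in saline, 56 to 47 in the main setting, was 37 to 77 with all spots, 47 to 60 with quantile, 46 to 59 with total gene signal, 21 to 67 without scaling and 4 to 157 with spike-ins. Under cyclophosphamide it was 64 to 49, then 38 to 75, 51 to 59, 56 to 53, 22 to 51 (73 in all) and 16 to 87. The cause was not tested.

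No drug difference of the 3 passed under any alternative, but several changed sign. For miR-221-3p in pachytene spermatocytes it was -0.0075 with all spots, -0.11 without scaling, -0.29 with spike-ins and -0.18 on slide 1, and -0.10 to 0.19 with arrays left out. In round spermatids it was 0.025 with all spots, 0.046 with quantile, 0.028 with spike-ins, 0.19 with the slide in the model, 0.028 on slide 1 and 0.39 on slide 3, and -0.14 to 0.048 with arrays left out. Its difference of drug effects was 0.032, 0.0043, 0.013, 0.31, 0.14 and 0.20 with all spots, quantile, no scaling, spike-ins, the slide in the model and slide 1, and -0.21 to 0.072 with arrays left out. For miR-222-3p the pachytene value was -0.17 with spike-ins and -0.14 on slide 1. Its spermatid value was -0.015 with total gene signal, -0.050 on slide 2 and -0.025 without slide 3, and -0.010 to 0.024 with arrays left out. Its difference of drug effects was 0.17 with spike-ins, 0.01 with the lower floor and 0.14 on slide 1. For miR-21-5p the spermatid value was -0.019 with quantile and -0.048 without scaling. Within slide 1 its cell type difference was -0.20 in saline, with 1 spermatid array, and 0.00027 under cyclophosphamide, where 72 miRNAs passed. Within slide 2, with 1 spermatid array per treatment, 30 miRNAs passed for the drug in round spermatids and 27 for the difference of effects, and within slide 3, with 1 drug array, 2 passed.

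The change of miR-221-3p minus that of miR-222-3p was 0.37 in saline and 0.28 under cyclophosphamide with the lower floor, and 1.14 and 0.94 with total gene signal, where it passed (adjusted exact permutation p 0.00952 and 0.0476, n = 5). With a replicate block over the 3 saline rat numbers found in both cell types (6 arrays), miR-221-3p stood at -1.50 and passed. There miR-222-3p stood at -1.31, given without a call since 4 of 5 saline spermatid arrays are at the floor. In the same fit miR-21-5p was at -0.22 (limma adjusted p 0.164), and 65 miRNAs passed. Over the spermatid numbers found in both treatments the blocked miR-222-3p value was -0.017, and those numbers are of different animals. Rat number as a random block changed no call of the 3 miRNAs. In the authors' deposited table, miR-222-3p differed between the cell types by -7.21 in saline and -7.43 under cyclophosphamide, and miR-221-3p by -2.49 and -4.21. In that table the spermatid drug difference of miR-221-3p was -1.65 and its difference of drug effects -1.72 (limma adjusted p 0.675 and 0.984). On the 8 arrays where the total gene signal of miR-222-3p is listed at 0.1, its median in that table is -6.85. Elsewhere the lowest value of miR-222-3p is -1.32. Detection in round spermatids, on 9 and 2 of 10 arrays, limits what can be said of miR-221-3p and miR-222-3p there.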
